A study of Homo sapiens with 12 samples.

Results

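Chromosome 19 holds the densest collection of zinc finger genes in the human genome, and their chromatin was examined here in pancreatic cancer cells. The genes were taken by name and place alone: protein-coding genes of the RefSeq table for GRCh38 that lie on chromosome 19 and carry a symbol of ZNF, a number and at most 1 letter. This rule gave 246 genes of the 19974 protein-coding genes on chromosomes 1 to 22 and X. The other 1205 protein-coding genes of chromosome 19 and the 263 genes with such symbols on other chromosomes served for comparison. The rule uses names and positions only, but the family was picked with earlier results of these data known.

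The measurements were ATAC-seq peak lists, in which Tn5 transposase marks accessible chromatin, from MIAPaCa2, an established line of pancreatic ductal adenocarcinoma. The 4 groups of 3 libraries were parental cells without oxamate (untreated parental), parental cells with oxamate (treated parental), oxamate-resistant cells without oxamate (untreated resistant) and oxamate-resistant cells with oxamate (treated resistant). Oxamate inhibits lactate dehydrogenase A, and the resistant cells were the survivors of long oxamate exposure of this 1 line. The labels do not say whether the 3 libraries of a group came from separate cultures, so p-values measure only the spread between these libraries.

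Most of these genes encode proteins with arrays of DNA-binding zinc fingers, and many also carry a KRAB domain. A KRAB domain recruits the corepressor TRIM28, which brings in histone methyltransferases and heterochromatin proteins. Many KRAB zinc finger proteins silence transposable elements, and their genes arose by repeated tandem duplication, so neighbours on the chromosome often resemble each other in sequence. In primates the clusters near the centromere expanded recently.

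Each library had 1 list, with between 46401 and 63259 peaks. Relative depth recovered from the lists, with the shallowest library at 1, lay between 1 and 2.77 and had its highest group mean in treated parental libraries, at 2.27 ± 0.559 (SD, n = 3), where replicate 1 stood at 1.66, within the range of the other groups. The smallest peak width, which follows fragment length, was 67 to 87 bp in parental and 94 to 124 bp in resistant libraries, so peak width and phenotype cannot be told apart in any comparison of resistant with parental cells below. The epithelial keratin genes KRT8 and KRT18 had a gene-end peak in 12 libraries. They are neighbours, and their best peaks had the same median rank and range of folds. KRT7, also an epithelial keratin gene, had a gene-end peak in 1 library and an internal peak in 11. PTPRC, CD3E, PECAM1, ALB and INS, markers of other cell types, had none at their ends in any library, although PECAM1 had an internal peak in 12. CDKN2A, which is deleted in this line, had 0 covered bases in every library.

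Promoter sequences come first, because the members fell into families at that level. RefSeq promoter sequence was at hand for 216 of the 246 genes. The stretches below are the last 160 bases before the RefSeq start site (GRCh38.p14), written 5′ to 3′ along the gene, and capitals mark every match to TCCAATCAGG or TGTCACTCAG on either strand. They were chosen because all belong to 1 run of neighbours, from ZNF101 to ZNF254, and the first 3 had a gene-end peak in 12 libraries while the last 3 had one in none.
ZNF93, chr19:19900786-19900945, plus strand: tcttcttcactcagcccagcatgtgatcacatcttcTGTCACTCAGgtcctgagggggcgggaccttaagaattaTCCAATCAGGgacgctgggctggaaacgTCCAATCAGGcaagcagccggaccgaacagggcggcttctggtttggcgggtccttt
ZNF85, chr19:20923091-20923250, plus strand: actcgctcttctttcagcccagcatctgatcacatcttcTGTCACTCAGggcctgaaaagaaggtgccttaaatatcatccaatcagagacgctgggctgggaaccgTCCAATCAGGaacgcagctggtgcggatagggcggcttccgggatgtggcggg
ZNF91, chr19:23395472-23395631, minus strand: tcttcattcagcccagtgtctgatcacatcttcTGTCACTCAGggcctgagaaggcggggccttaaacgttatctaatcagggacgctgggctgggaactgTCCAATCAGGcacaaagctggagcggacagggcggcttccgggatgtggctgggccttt
ZNF208, chr19:22010944-22011103, minus strand: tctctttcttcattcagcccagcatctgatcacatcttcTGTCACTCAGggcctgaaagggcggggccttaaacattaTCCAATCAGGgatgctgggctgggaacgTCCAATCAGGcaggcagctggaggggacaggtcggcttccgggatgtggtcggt
ZNF492, chr19:22634164-22634323, plus strand: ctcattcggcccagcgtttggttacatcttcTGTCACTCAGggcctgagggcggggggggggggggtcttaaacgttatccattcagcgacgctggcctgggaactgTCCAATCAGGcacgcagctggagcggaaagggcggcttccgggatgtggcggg
ZNF730, chr19:23116865-23117024, plus strand: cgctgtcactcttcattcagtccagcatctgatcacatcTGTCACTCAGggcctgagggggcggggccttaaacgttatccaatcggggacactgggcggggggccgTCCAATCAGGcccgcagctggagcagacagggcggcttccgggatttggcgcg

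The open and the closed promoters above shared both elements. Across promoters of 250 bases before to 50 after the start, TCCAATCAGG stood in 43 of 216 zinc finger promoters (19.9%), against 0.493% of all 15812 coding promoters and 6.54% of those of zinc finger genes on other chromosomes. None of the 969 other chromosome 19 promoters held it. TGTCACTCAG stood in 31 of 216 (14.4%), against 0.386% of all coding promoters, and 24 promoters held both. The first lay on the gene's own strand in 51 of 52 matches and the second in 31 of 31. Their median offsets from the start site were −58.5 and −121 bases. The words were picked by their frequency: of all 10-letter words for which zinc finger genes of chromosome 19 made up at least 50% of the promoters holding them, these 2 stood in most of their promoters. Their frequency is therefore a description.

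Among the members, both words stood only in runs of the short arm. TCCAATCAGG was found in 26 of 29 promoters of the run ZNF101 to ZNF254, in 14 of 24 of the run ZNF653 to ZNF791 and in 3 of 5 of the run ZNF554 to ZNF77, and in 0 promoters of the other runs. TGTCACTCAG was found in 20 of 29 and 11 of 24 promoters of the first 2 of these runs and nowhere else among the members. In the run ZNF101 to ZNF254, TCCAATCAGG stood in 18 of 19 promoters of genes with a gene-end peak in 12 libraries and in 7 of 8 of genes with none. In the run ZNF653 to ZNF791 it stood in 13 of 17 and in 0 of 5. TGTCACTCAG stood in 12 of 19 and 7 of 8 in the first of these runs, and in 7 of 17 and 2 of 5 in the other. The split between genes with and without a gene-end peak thus differed between the runs for the first word, and it was not tested. It is not a split between open and closed promoters. In the run ZNF653 to ZNF791, ZNF563, ZNF442 and ZNF799 had no gene-end peak but a peak within 1 kb of their own start in 12 libraries.

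Words of general promoter factors were also counted, on both strands. CCGGAA, the core of ETS family sites, stood in 56.0% of the 216 zinc finger promoters and 22.8% of all coding promoters. CCAAT, which lies within TCCAATCAGG, stood in 53.7% and 36.3%. TATAAA was rare, in 1.85% against 9.64%. AAGATGGC, part of the YY1 site, stood in 6.48% of the zinc finger promoters, 3.91% of all coding promoters and 5.57% of those of the other chromosome 19 genes. By gene-end peaks of the zinc finger genes, AAGATGGC stood in 14 of 153 promoters with a gene-end peak in 12 libraries, in 0 of 24 with one in some and in 0 of 39 with none. For CCGGAA the first and last of these shares were 57.5% and 61.5%, and for CCAAT 54.2% and 59.0%. None of these splits was tested, and 12 of the 39 genes in the last class had a peak within 1 kb of the start site in 12 libraries.

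The first question was how many of the genes had accessible chromatin at their ends. A peak within 1 kb of either end of the gene, from now on a gene-end peak, was present in all 12 libraries at 171 of the 246 genes (69.5%). It was present in 1 to 11 libraries at 27 genes (11.0%) and in none at 48 (19.5%). Over all protein-coding genes the shares were 55.0%, 19.4% and 25.6%, over the other chromosome 19 genes 55.2%, 24.6% and 20.2%, and over zinc finger genes elsewhere 73.0%, 11.4% and 15.6%. Few of the zinc finger genes were undecided, and of those 27 only 6 had a peak in 3 to 9 libraries, whereas 18 had it in 1 or 2. In 43 genes (17.5%) an end lay within 1 kb of an end of another coding gene, so that the peak could belong to either, against 42.2% of the other genes of the chromosome.

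The accessible end was the start. Of the 216 genes with a known start site, 166 (76.9%) had a peak within 1 kb of it in 12 libraries, 16 in some and 34 in none. At the opposite end 6 genes had a peak in 12 libraries and 185 (85.6%) in none, where 51.2% of the other chromosome 19 genes and 71.7% of all coding genes had none. The 6 were ZNF766, ZNF880, ZNF701, ZNF628, ZNF580 and ZNF324. In the 100 bases before the start site 75.1% to 78.4% of bases were under a peak in the 4 groups, against 45.2% to 51.4% at the other genes of the chromosome. Over the whole window within 1 kb of the start the means were 23.8% to 35.1% for the zinc finger genes and 17.0% to 25.6% for the others. Within 1 kb of the opposite end they were 0.857% to 1.13% and 3.45% to 6.54%.

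**Figure D1:**
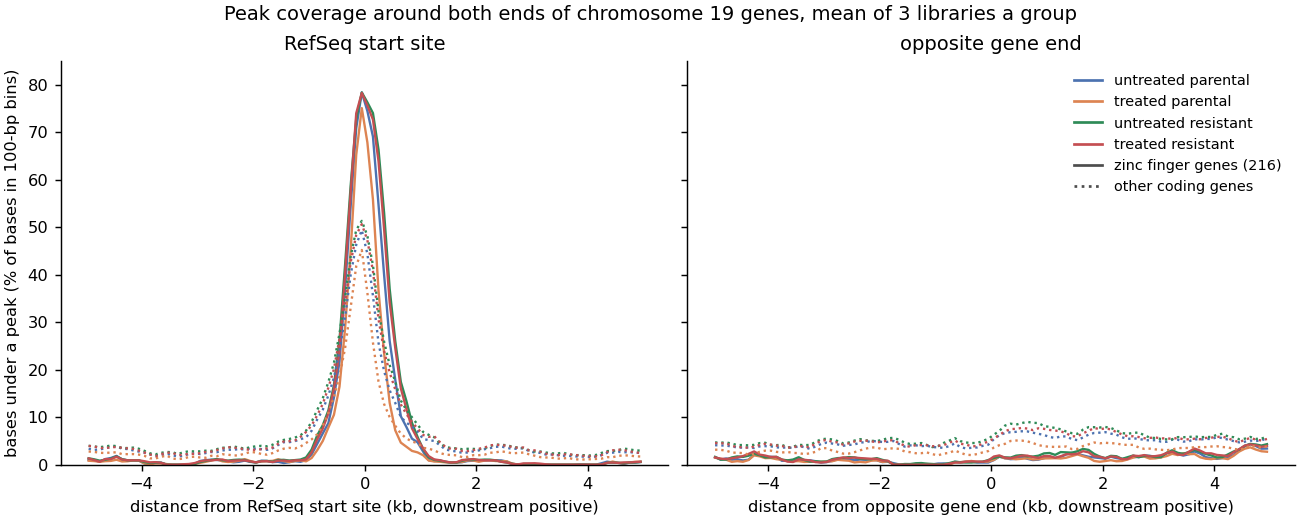
Share of bases under a peak (y axis, percent, in 100-bp bins) against distance from the RefSeq start site (left) and from the opposite gene end (right) in kb, as the mean of 3 libraries a group. Solid lines are the 216 zinc finger genes with a known start, dotted lines the other coding genes of chromosome 19, and the solid lines reach 75.1% to 78.4% just before the start and stay near the axis at the opposite end.

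Some of the 48 genes without a gene-end peak started elsewhere. The RefSeq start site lay over 1 kb inside the gene span in 31 genes, and 23 of these had a start-site peak in 12 libraries. Of the 48 genes, 12 had a start-site peak in 12 libraries, among them ZNF331, ZNF558, ZNF599 and ZNF444, and 26 had none at either place. The remaining genes had no start site in the table or a peak there in some libraries.

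ZNF331, an imprinted gene, was the clearest case. It had no gene-end peak in any library and more covered bases than any other of the 246 genes. Its covered bases, all inside the span, were 2524, 2910 and 2395 bp in untreated parental, 1564, 2104 and 2034 bp in treated parental, 3333, 2733 and 2912 bp in untreated resistant and 3260, 2652 and 3245 bp in treated resistant libraries. The treated parental values lay below all others. Relative to the median gene of each library, the difference on treatment of parental cells was −0.0454 on the log2 scale (limma adjusted p = 0.869). The promoter used by the RefSeq start is shown with its CpG dinucleotides in capitals.
ZNF331, chr19:53520854-53521013, plus strand: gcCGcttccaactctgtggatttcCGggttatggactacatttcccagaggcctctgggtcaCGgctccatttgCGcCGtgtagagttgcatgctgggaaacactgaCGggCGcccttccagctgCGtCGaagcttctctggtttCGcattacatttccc

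ZNF69, whose RefSeq start lies at its gene end, had no gene-end peak but an internal peak in 12 libraries. A peak within 1 kb of an end of ZNF700, which lies inside the ZNF69 span, was among its internal peaks in 12 libraries, and in 9 of 12 libraries the covered bases of ZNF69 equalled the width of the gene-end peak of ZNF700. ZNF575 had a gene-end peak in 4 libraries, all parental, with folds over background of 2.99 to 3.61, and a start-site peak inside the span in 12. In all, 41 genes had an internal peak in 12 libraries, and in 23 of them the start site lay off the gene end. An internal peak lay within 1 kb of the gene's own start in all libraries at 26 of the 41, and within 1 kb of an end of another coding gene at 9, with 6 genes in both counts.

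Position along the chromosome came next. Members separated by less than 500 kb were joined into runs, and 10 runs of 5 or more genes held 232 of the 246. A gene-end peak in 12 libraries was present at 13 of 16 genes of the run ZNF628 to ZNF835, 33 of 43 of ZNF264 to ZNF446, 18 of 23 of ZNF575 to ZNF180, 20 of 26 of ZNF565 to ZNF573, 10 of 13 of ZNF414 to ZNF846 and 17 of 25 of ZNF653 to ZNF791. The share was lower in the run ZNF175 to ZNF331, with 24 of 39, and in ZNF101 to ZNF254, with 22 of 37. In the small run ZNF302 to ZNF792, 1 of 5 genes had such a peak. Of the others there, ZNF302 and ZNF599 had a start-site peak in 12 libraries and ZNF30 an internal peak in 12.

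**Figure D2:**
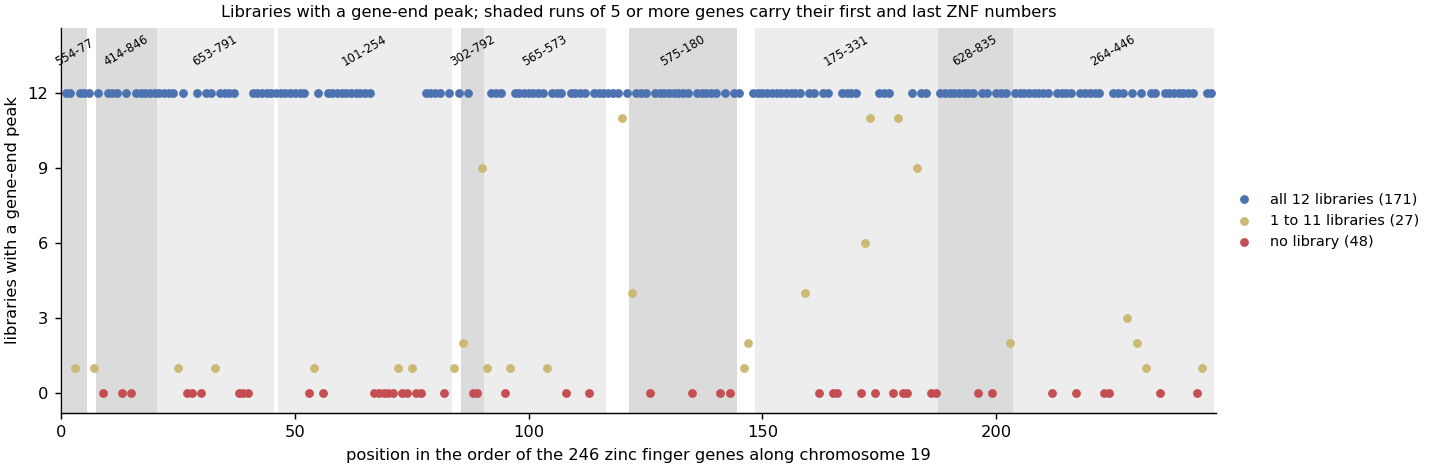
Number of the 12 libraries with a gene-end peak (y axis) for each of the 246 genes in their order along chromosome 19 (x axis), with runs of 5 or more genes shaded and marked by the ZNF numbers of their first and last gene. Blue, yellow and red points are the 171, 27 and 48 genes with a peak in all, some and no libraries, and 11 consecutive genes in the run 101-254 lie at 0 or 1.

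The longest closed stretch was found by looking at these counts, and it gets no test. It spanned 11 consecutive members from ZNF43 to ZNF730 (chr19:21804946-23147221, 1.34 Mb): ZNF43, ZNF208, ZNF257, ZNF676, ZNF729, ZNF98, ZNF492, ZNF99, ZNF723, ZNF728 and ZNF730. Of these 9 had a gene-end peak in no library, and ZNF98 and ZNF723 had one in 1 library each. The stretch held 1.12 peaks per Mb in the median library, against 8.18 per Mb for the whole run ZNF101 to ZNF254 that contains it. On either side the promoters were open: ZNF100 and ZNF724 had a gene-end peak in 12 libraries.

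The few peaks inside the stretch were unevenly spread over libraries. There were 2, 0 and 4 in untreated parental, 5, 7 and 8 in treated parental, 1, 2 and 0 in untreated resistant and 0, 0 and 0 in treated resistant libraries. Each treated parental library lay above every other library. The 2 deepest of all 12 libraries were treated parental replicates 2 and 3, and the part of depth in these counts was not tested. ZNF43 had at most 506 covered bases and ZNF208 at most 141, each with a median of 0. Reads that mapped to more than 1 place had been removed by the authors, and how much of these near-identical genes can hold unique reads was not analysed here.

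Around that stretch stood the described repressors of retroelements. ZNF91, which silences SVA elements, had a gene-end peak in 12 libraries with folds of 6.67 to 9.68 and 462 to 1518 covered bases. ZNF93, which silences L1 elements, had one in 12 with lower folds of 3.57 to 5.59 and 174 to 1438 covered bases. ZNF85 had one in 12 with folds of 4.53 to 11.9. On the long arm ZNF224, a repressor of ALDOA, had one in 12 with folds of 6.15 to 10.2, and so had ZNF568, whose mouse counterpart represses a placental Igf2 transcript, with folds of 4.56 to 9.90. The best gene-end peaks of ZNF568 and its neighbour ZNF829 had equal widths in every library, so this peak could belong to either.

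ZNF154, ZNF677, ZNF671 and ZNF382, taken from the fixed list and known for promoter methylation in tumours, were closed or nearly so. Other genes known for such methylation were not examined as a set, and 48 of all 246 genes had no gene-end peak in any library. ZNF154 and ZNF677 had 0 covered bases in 12 libraries. ZNF671 had no gene-end peak, and its covered bases were 0 in 11 libraries and 369 in treated parental replicate 3. ZNF382 had a gene-end peak in 1 library and at most 117 covered bases. DNA methylation was not measured in these libraries. The promoter of ZNF677, with CpG dinucleotides in capitals, carries 18 of them in 160 bases, more than the 17 of the open ZNF547 and ZNF787, and ZNF154 carries 7.
ZNF677, chr19:53254824-53254983, minus strand: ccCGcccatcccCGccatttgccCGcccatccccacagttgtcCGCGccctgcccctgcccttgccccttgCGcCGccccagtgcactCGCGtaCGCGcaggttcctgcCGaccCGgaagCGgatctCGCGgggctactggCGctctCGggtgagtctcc
ZNF154, chr19:57709205-57709364, minus strand: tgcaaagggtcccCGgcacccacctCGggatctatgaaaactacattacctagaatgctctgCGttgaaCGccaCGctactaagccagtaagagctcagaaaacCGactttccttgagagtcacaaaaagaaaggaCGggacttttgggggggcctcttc
ZNF547, chr19:57363391-57363550, plus strand: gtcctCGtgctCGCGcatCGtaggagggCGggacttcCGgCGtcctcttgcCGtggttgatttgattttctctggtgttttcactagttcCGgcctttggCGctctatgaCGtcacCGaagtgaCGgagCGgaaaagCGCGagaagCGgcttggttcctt

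Over the 300-base promoters the median number of CpG dinucleotides was 21 in genes with a gene-end peak in 12 libraries, 20.5 in those with 1 to 11 and 17 in those with none. The range within the last class, 2 to 42, took in the median of the others. Of the 39 promoters in that class, 12 had a start-site peak in 12 libraries, so this is not a split between open and closed promoters.

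The strongest gene-end peaks of the family were ranked by q within each list. The median rank was within the top 0.932% for ZNF547, 0.654% for ZNF787, 0.668% for ZNF837, 0.880% for ZNF584 and 1.07% for ZNF414. ZNF547 had folds of 9.18 to 14.0 and ZNF787 of 9.09 to 13.3. Over all members with a gene-end peak the median rank lay between the top 10.6% and 17.4% in the 12 libraries, and over all coding genes between 13.6% and 20.3%. Most covered bases after ZNF331 were found over ZNF790, with a mean of 2218 bp, ZNF584 with 2156 bp, ZNF83 with 2038 bp and ZNF324 with 1772 bp. The best gene-end peak of ZNF790 had the width of that of ZNF345 in every library, and that of ZNF324 the width of that of ZNF446. These peaks could belong to either neighbour.

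The next question was whether the family as a whole opened or closed with resistance or oxamate. In parental cells the share of the 246 genes with a gene-end peak was 73.0 ± 0.846% before and 71.3 ± 1.02% under oxamate (mean ± SD of 3 libraries each). In resistant cells it was 73.2 ± 0.704% and 72.8 ± 0.704% (again 3 libraries each). Single libraries lay between 70.3% and 74.0%. Resistant minus parental was 0.813 percentage points, with a p of 0.17 in the 2-sided exact permutation test and 0.278 after adjustment over 15 tests. Treated minus untreated was −1.08 percentage points (exact permutation p = 0.11, adjusted p = 0.236). For the interaction the value was 1.36 percentage points, with an exact permutation p of 0.32 that became 0.4 on adjustment. None of these passed.

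The other coding genes of chromosome 19 moved over a wider range, from 59.3% to 68.1%. With oxamate they stood at 61.2 ± 1.65% in parental cells against 65.4 ± 1.62% without it (mean ± SD of 3 libraries each). The zinc finger share exceeded theirs in 12 of 12 libraries, by 5.39 to 11.0 percentage points. This excess was 2.46 percentage points smaller in resistant than in parental libraries (exact permutation p = 0.045, adjusted p = 0.236), which did not pass after adjustment, and 2.42 percentage points larger in treated than in untreated parental libraries (exact permutation p = 0.3).

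Inside the gene spans, over 1 kb from both ends, the share of zinc finger genes with a peak was 26.0 ± 1.22% in parental cells before and 27.9 ± 3.41% under oxamate, and 25.1 ± 2.01% and 23.3 ± 2.05% in resistant cells (mean ± SD of 3 libraries each). The phenotype difference of −2.78 percentage points did not pass (exact permutation p = 0.11, adjusted p = 0.236), and its sign turned, to 2.30 percentage points, when peaks under a −log10 q of 3 were left out. At the other genes of the chromosome the internal share lay between 39.2% and 51.9% in single libraries. The difference between both gene classes changed by −6.29 percentage points with phenotype (exact permutation p = 0.035, adjusted p = 0.164 over 36 tests added after the data were seen).

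**Figure D3:**
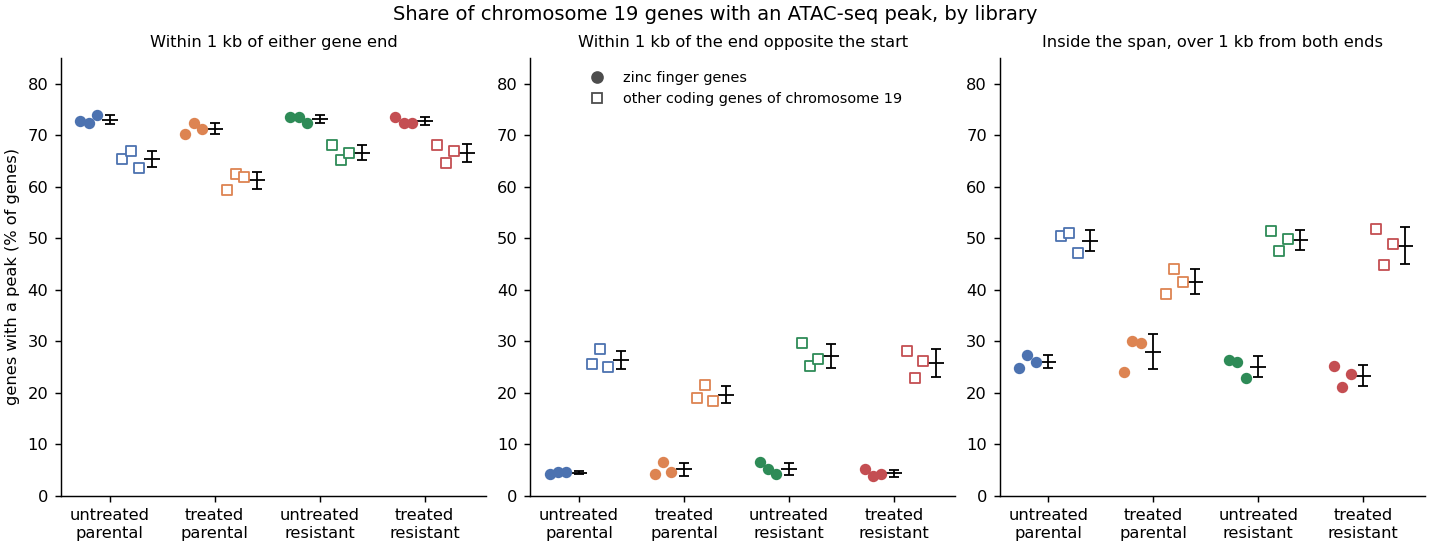
Percent of genes with a peak (y axis) in each library, by group (x axis), for either gene end, the end opposite the start and the inside of the span. Filled points are zinc finger genes, open squares other coding genes of chromosome 19, bars mean ± SD of 3 libraries, and the zinc finger genes lie above the others at gene ends and below them at the other places in 12 of 12 libraries.

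Covered bases over the family and 1 kb around (7.49 Mb in all) followed the extent of peaks in the libraries. They came to 163 ± 14.2 kb in parental cells before and 129.5 ± 14.0 kb under oxamate, and to 189 ± 17.7 kb and 179 ± 17.7 kb in resistant cells (mean ± SD of 3 libraries each). The resistant lists covered 37.7 kb more of the family than the parental ones (exact permutation p = 0.005, the smallest the 400 assignments allow, adjusted p = 0.075), which missed the threshold after adjustment. Every treated parental library lay below every untreated parental one, by 33.0 kb in the mean. The exact permutation p of this difference was 0.1, and 3 against 3 cannot give a smaller one. In resistant cells treatment went with −9.88 kb, less than the pooled SD of 17.7 kb.

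As a share of all covered bases the order was turned. The family held 0.686 ± 0.0180% of them in parental cells before and 0.761 ± 0.0561% under oxamate, and 0.657 ± 0.0339% and 0.680 ± 0.0593% in resistant cells (mean ± SD of 3 libraries each). Resistant minus parental was −0.0549 percentage points (exact permutation p = 0.075, adjusted p = 0.236). The gene-end peaks themselves had a median width of 468 to 585 bp in treated parental and 612.5 to 890 bp in the other libraries.

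**Figure D4:**
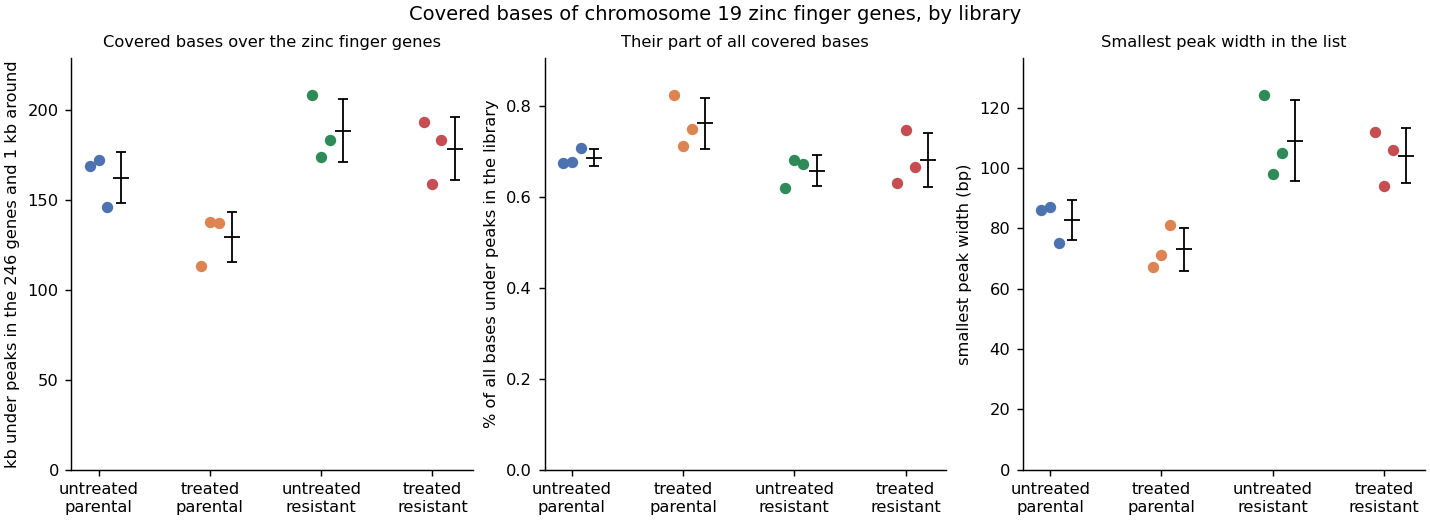
Covered kb over the 246 genes (left), their percent of all covered bases (middle) and the smallest peak width in bp (right) in each library by group, with mean ± SD of 3 libraries. Treated parental libraries are lowest in covered kb, at 113 to 138 kb, and all resistant libraries exceed all parental ones in smallest width.

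Single genes were compared in 2 ways. By presence of a gene-end peak, 458 genes of the whole table could be tested by Fisher's exact test of 6 against 6 libraries, and it called 0% (0 of 458) by phenotype or treatment. The unadjusted p was below 0.05 for 48 genes higher and 4 lower in resistant libraries and for 0 higher and 6 lower in treated ones. Only ZNF28 of the family could be tested, with a peak in 4 of 6 resistant and 2 of 6 parental libraries (Fisher's exact p = 0.567).

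A gene-end peak in 3 of 3 untreated and 0 of 3 treated parental libraries was found at 2 of the 246 genes, ZNF525 and ZNF792, where the background over all coding genes was 0.601%. The same 2 genes had a peak in 3 of 3 treated resistant libraries against 0 of 3 treated parental ones, against a background of 1.08%. Both comparisons share the treated parental libraries. No member gained such a peak on treatment of parental cells (background 0.02%). On treatment of resistant cells 0 members gained (background 0.0401%) and 0 lost one (background 0.0451%). Between untreated resistant and untreated parental cells 0 gained (background 0.215%) and 0 lost one (background 0.0701%), and 0 lost one between treated cells (background 0.035%). ZNF836, with a gene-end peak in 4 libraries, and ZNF28, with 6, were the members nearest to an even split besides ZNF575.

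By covered bases, limma compared 16074 genes, 211 of them members, on log2(covered bases + 100) after each library was centred on its median gene. In resistant against parental libraries 3 members were higher (background 2.84% of all genes tested) and 2 lower (background 1.15%). The median difference of the 211 members was −0.11 on this log2 scale, and 0.00191 over all genes. Between treated resistant and treated parental libraries 4 members were higher (background 3.99%) and 2 lower (background 1.45%). On treatment of parental cells 0 were higher (background 0.168%) and 1 was lower (background 0.659%). The member counts at the adjusted threshold lay near the background shares or below them. Without peaks under a −log10 q of 3, 8 members were higher by phenotype (3.96%, all genes 12.9%) and 17 lower (8.42%, all genes 6.48%). In the other 4 contrasts limma called 0 members. The backgrounds were 0.0187% higher and 0.00622% lower on treatment of resistant cells, 0.0871% and 0.0311% between untreated cells, 0.0435% and 0.0249% for treatment over both phenotypes, and 0.0311% and 0.0249% for the interaction. At an unadjusted p under 0.05, limma gave 1 member higher and 4 lower on treatment of resistant cells, where 1.26% and 1.67% of all genes tested did so. It gave 8 and 4 between untreated cells (all genes 4.29% and 3.32%), 12 and 9 for treatment (4.12% and 6.21%) and 5 and 3 for the interaction (5.53% and 2.95%). As shares of the 211 members these were 0.474% and 1.90%, 3.79% and 1.90%, 5.69% and 4.27%, and 2.37% and 1.42%. By phenotype 5.21% of members were higher and 15.6% lower at that p (all genes 14.0% and 12.6%). Between treated cells the shares were 2.84% and 17.5% (all genes 14.5% and 12.1%). On treatment of parental cells they were 11.4% and 4.74% (all genes 6.45% and 9.95%). These departures of the members from all genes were not tested. Without centring the median gene was 0.38 higher in resistant libraries on the log2 scale, and 47 members (22.3%) passed as higher and 0 as lower, where 29.4% and 0.404% of all genes did.

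ZNF525 had the largest difference. Its covered bases were 560, 528 and 150 bp in untreated parental, 0, 0 and 0 bp in treated parental, 524, 512 and 506 bp in untreated resistant and 508, 531 and 647 bp in treated resistant libraries. Treated parental libraries were empty, and the other groups overlapped. On treatment of parental cells the fitted difference was −1.83 (SE 0.273, limma adjusted p = 0.0166), and between treated resistant and treated parental cells 2.18 (SE 0.273, limma adjusted p = 0.00377). Both depend on the 100 bases added, since 1 group is at 0, and are no fold changes. The interaction of 2.02 (SE 0.386) did not pass, with a limma adjusted p of 0.141.

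These peaks were weak. The folds of ZNF525 peaks were 3.61 to 4.82 with −log10 q of 2.05 to 4.82. In untreated parental libraries the −log10 q was 2.05 to 2.50. When peaks under a −log10 q of 3 were left out, no parental library kept covered bases at ZNF525. The treatment difference in parental cells was then 0.42 (limma adjusted p = 0.749), which came from the centring alone. The treatment call was lost without untreated parental replicate 1 or replicate 2, with a limma adjusted p of at most 0.0816 and differences of −2.20 to −1.63 over the libraries left out. The call between treated cells passed in each of 12 fits that left out 1 library, and so did the phenotype difference of 1.17 (SE 0.193, limma adjusted p = 0.0134). Both were lost when peaks under a −log10 q of 3 were left out, and the phenotype call also with 500 bases added in place of 100.

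ZNF792 had 369, 265 and 164 covered bases in untreated parental, 0, 0 and 0 in treated parental, 1268, 287 and 290 in untreated resistant and 338, 407 and 429 in treated resistant libraries. Again only the treated parental libraries were empty. The treatment difference in parental cells did not pass (limma adjusted p = 0.115), and the difference between treated resistant and treated parental cells did, at 1.75 (SE 0.375, limma adjusted p = 0.0317). It was lost when any of the 6 treated libraries was left out, with an adjusted p of at most 0.0991. The phenotype difference of 1.13 (SE 0.265, limma adjusted p = 0.0462) was lost in 10 of 12 such fits.

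ZNF468 had 490, 823 and 367 covered bases in untreated parental, 0, 108 and 89 in treated parental, 879, 810 and 524 in untreated resistant and 872, 585 and 264 in treated resistant libraries. Treated parental libraries lay below all others. The difference between treated resistant and treated parental cells was 1.44 (SE 0.364, limma adjusted p = 0.0476), and it was lost in 11 of 12 fits that left out a library (adjusted p of at most 0.168).

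ZNF841 was the member with the firmest phenotype difference. Its covered bases were 272, 366 and 369 bp in untreated parental and 258, 261 and 226 bp in treated parental libraries. In untreated resistant libraries they were 1215, 1010 and 1178 bp and in treated resistant ones 771, 650 and 1401 bp. Every resistant library lay above every parental one. The difference was 1.13 on the log2 scale (SE 0.166, limma adjusted p = 0.00764), and it passed in 18 of 18 alternative fits. Between treated cells alone it was 0.97 (SE 0.234, limma adjusted p = 0.0425), which was lost in 10 of 12 fits that left out a library.

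The wider ZNF841 peak was not a higher one. The fold over background of its gene-end peak was 6.91 to 10.7 in parental and 5.46 to 8.15 in resistant libraries, and these ranges overlapped. The smallest peak width also differed between these phenotypes, and its part in the ZNF841 difference was not tested. When peaks narrower than 124 bp were dropped in every list, 4 members (1.63%) had a peak in 3 of 3 treated resistant and 0 of 3 treated parental libraries, where 1.59% of all coding genes did: ZNF792, ZNF574, ZNF468 and ZNF525. The promoters of ZNF841 and ZNF525, which lie in the run ZNF175 to ZNF331, and of ZNF792 are shown with CpG dinucleotides in capitals, since these genes carried the differences.
ZNF841, chr19:52095766-52095925, minus strand: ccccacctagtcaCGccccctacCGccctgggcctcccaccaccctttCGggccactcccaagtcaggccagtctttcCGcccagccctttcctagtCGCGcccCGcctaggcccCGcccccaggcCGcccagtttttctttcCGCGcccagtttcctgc
ZNF525, chr19:53365545-53365704, plus strand: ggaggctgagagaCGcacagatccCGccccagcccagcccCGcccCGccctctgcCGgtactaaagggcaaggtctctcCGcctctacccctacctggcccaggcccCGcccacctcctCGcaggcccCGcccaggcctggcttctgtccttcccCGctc
ZNF792, chr19:34964230-34964389, minus strand: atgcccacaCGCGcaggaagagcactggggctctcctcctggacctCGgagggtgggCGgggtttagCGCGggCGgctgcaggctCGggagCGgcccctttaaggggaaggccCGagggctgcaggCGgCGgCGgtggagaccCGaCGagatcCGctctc

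The members with fewer covered bases in resistant cells, relative to the median gene, moved little. ZNF85 had 705, 649 and 751 covered bases in untreated parental, 555, 569 and 678 in treated parental, 657, 630 and 619 in untreated resistant and 616, 532 and 580 in treated resistant libraries. The raw values of the groups overlapped, and relative to the median gene the phenotype difference was −0.47 (SE 0.106, limma adjusted p = 0.0424). Without centring it was −0.0861 and did not pass. ZNF317 was lower by phenotype, at −0.50 (SE 0.119, limma adjusted p = 0.0472), and ZNF180 between treated cells, at −0.62 (SE 0.150, limma adjusted p = 0.0428). Between treated cells ZNF85 also passed, at −0.59 (SE 0.150, limma adjusted p = 0.0494). All 4 calls were lost without centring and in 9 or more of 12 fits that left out a library. The mean folds of the gene-end peaks of these 3 genes were higher in resistant cells, untreated and treated. For ZNF85 they were 4.53 to 5.84 in treated parental and 10.4 to 11.9 in treated resistant libraries. For ZNF180 these ranges were 5.82 to 6.33 and 8.72 to 11.1, and for ZNF317 they overlapped, at 4.59 to 5.17 and 5.13 to 7.94. The median fold over the members also differed, at 5.82 to 6.17 in treated parental and 7.58 to 8.31 in treated resistant libraries. In untreated parental and resistant libraries ZNF85 folds overlapped, at 6.24 to 8.90 and 7.78 to 11.4. Those of ZNF180 (7.21 to 8.59 and 8.61 to 10.2) and ZNF317 (5.12 to 5.84 and 6.13 to 7.50) did not. In bulk libraries, a change in the number of cells with an open site and a change within every cell cannot be told apart.

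**Figure D5:**
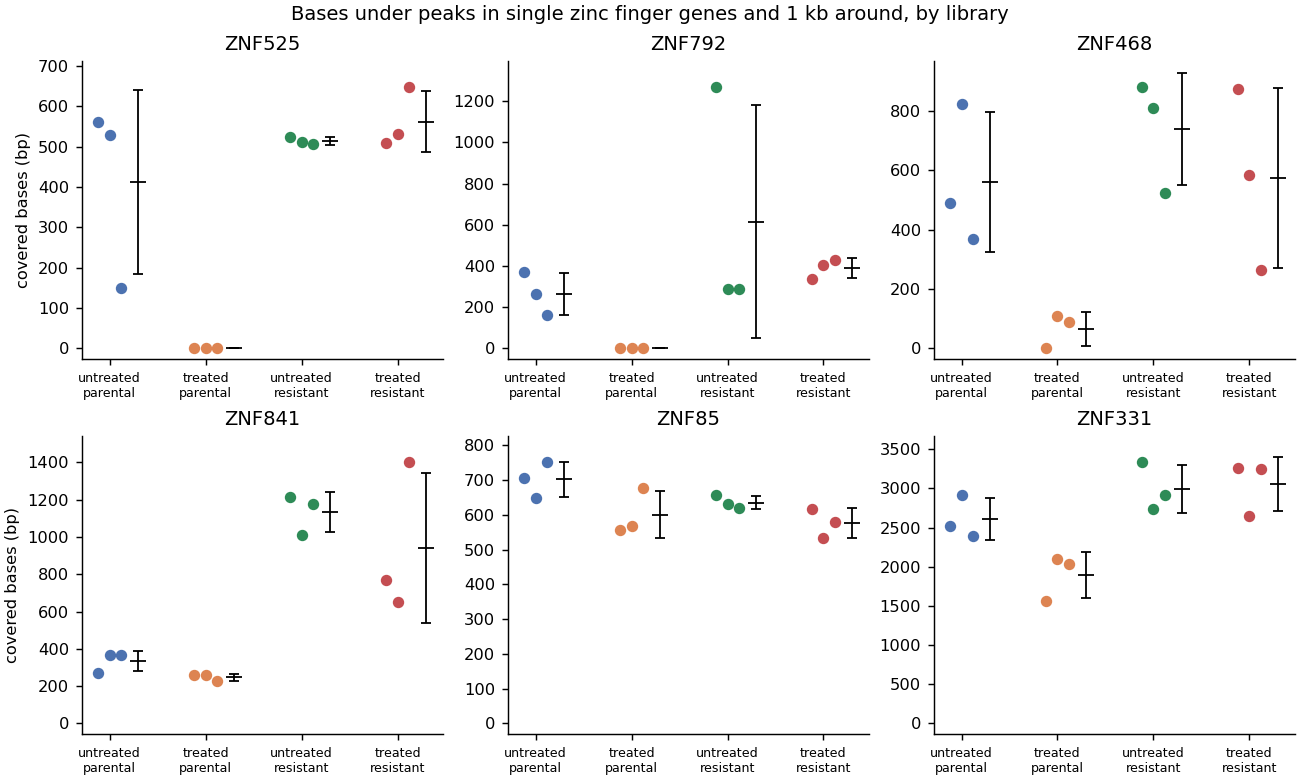
Covered bases in bp (y axis) over 6 genes and 1 kb around them in each library by group (x axis), with mean ± SD of 3 libraries. ZNF525 and ZNF792 are at 0 in the 3 treated parental libraries, ZNF841 is at 226 to 369 bp in parental and 650 to 1401 bp in resistant libraries, and ZNF331 lies lowest in treated parental libraries. The values are not centred on the median gene of each library.

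The partners through which KRAB zinc finger proteins act were examined from a list of 16 genes. A gene-end peak was present in 12 libraries at 14 of them: the corepressor TRIM28, the histone methyltransferase SETDB1 and its partner ATF7IP, the heterochromatin proteins CBX1, CBX3 and CBX5, the silencing complex members TASOR, MPHOSPH8 and PPHLN1, and MORC2, ATRX, SMARCAD1, DNMT1 and DNMT3A. DNMT3B had one in 11 libraries. UHRF1 had none at its ends and an internal peak in 12. TRIM28, itself on chromosome 19 beside the last zinc finger run, had a median rank in the top 4.45% and 713 to 1522 covered bases. Of the 16 genes, 0 were higher (background 3.99%) and 1 was lower (background 1.45%) between treated resistant and treated parental cells, CBX5 at −0.61 (SE 0.156, limma adjusted p = 0.0490). In the other 6 contrasts 0 of the 16 passed limma in either direction.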

How the data were processed

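ATAC-seq libraries of MIAPaCa2 cells were grouped by sample title. Per the submitters' processing notes and the study's methods, the authors used Bowtie2 2.1.0 on hg38, discarded reads that were mitochondrial, duplicated or not uniquely placed, and ran MACS2 on each library in paired-end mode for broad peaks. The deposited lists give positions, a score, a fold over background, and −log10 of p and q (smallest −log10 q 1.00). They hold no read counts and no depth, so relative depth was recovered from fold and −log10 p pairs. Other chromosomes than 1 to 22 and X, with 0.892% of peaks, were left out. Gene ends came from the RefSeq table, strand and start sites from RefSeq promoters (GRCh38.p14). Protein sequences were not analysed here.

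A peak with at least 1 bp within 1 kb of a gene end counted. Covered bases were summed over the span widened by 1 kb. Libraries were compared by two-sided exact permutation within strata (400 assignments) or 3 against 3 (20 assignments), with Benjamini-Hochberg adjustment over 15 tests. Genes were compared by Fisher's exact test, for genes with a peak in 5 to 7 libraries, and by limma 3.58.1 on log2(covered bases + 100), for genes covered in at least 3 libraries, with a threshold of 0.05 on the adjusted p. Scripts were tested on simulated data.

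Named genes were those called, those present in 3 of 3 against 0 of 3 libraries, the 5 best ranked and the 5 most covered, the 5 longest without a gene-end peak, the 3 nearest to 6 libraries and a fixed list of described genes. Others named in counts were chosen after their values were seen. Members and lists were chosen with earlier results of these data known. Alternatives were −log10 q of at least 3, equal numbers of top-ranked peaks (45748), a minimum width of 124 bp, distances of 500 bp and 5 kb, 50 bp of overlap, 1 member per overlapping run, other pseudocounts and filters, no centring, a block for the replicate number and the omission of each library in turn. The start site in place of both ends was added after the data were seen.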

Additional observations from a re-analysis of the deposited data

How the results depend on the processing

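Fragment width is confounded with phenotype, depth differs 2.77-fold, and the lists give called peaks only, so weak sites such as ZNF525 depend on the threshold. With equal numbers of top-ranked peaks the phenotype differences passed for covered bases (38.3 kb) and the share of all covered bases (−0.0683 percentage points), both with an adjusted exact permutation p of 0.0375. When peaks under a −log10 q of 3 were left out they were 42.9 kb and −0.161 percentage points, on the threshold with an adjusted exact permutation p of 0.05. The cause was not tested. The share of members with an internal peak turned sign for phenotype, treatment and interaction with −log10 q of at least 3 (2.30, −2.44 and 2.71 percentage points) and within 500 bp (4.40, −4.81 and 2.57), for phenotype and treatment with the minimum width (1.56 and −1.15), and for treatment over −0.508 to 1.05 when single libraries were left out. The cause of these turns was not tested. The gene-end interaction was −0.407 at 5 kb.

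With −log10 q of at least 3, Fisher's test called 229 of 681 genes tested by phenotype, 228 of them higher in resistant libraries. Of the members, 4 could be tested and 1 was called (ZNF100). At this threshold 4 members had a peak in 3 of 3 treated resistant and 0 of 3 treated parental libraries (ZNF100, ZNF792, ZNF888 and ZNF579). These were 1.63% of members, against 3.73% of all coding genes at that threshold. With the minimum width 4 did, against 1.59% of all coding genes. Leaving out a library gave 2 to 3 such members, and 0 to 1 members lost in resistant against parental cells, treated or untreated (ZNF575 or ZNF587B).

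The main limma fits called 5 members by phenotype, 6 between treated cells, 1 on treatment of parental cells and 0 in the other contrasts. Without centring 47 members were called by phenotype and 43 between treated cells, all higher (all genes 29.4% and 30.7%), and 11 on treatment of parental cells, all lower (all genes 5.94%). Without the filter limma called 39 members by phenotype, 5 higher and 34 lower (all genes 6.21% and 19.4%, members 2.03% and 13.8%). Between treated cells it called 34, 5 higher and 29 lower (all genes 6.70% and 19.2%, members 2.03% and 11.8%). Genes without covered bases entered these fits, and centring alone gave them lower values in libraries with a higher median. These counts therefore show no direction of the members. With −log10 q of at least 3 there were 25 by phenotype, 8 higher and 17 lower (all genes 12.9% and 6.48%, members 3.96% and 8.42%), and 30 between treated cells, 7 higher and 23 lower (14.5% and 7.22%, members 3.47% and 11.4%). The cause was not tested. At this −log10 q 5 members were lower on treatment of parental cells (2.48%, all genes 4.90%) and 2 for treatment (0.990%, all genes 1.76%). For the interaction 2 were higher (0.990%, all genes 1.77%), and between untreated cells 1 was (0.495%, all genes 0.453%). With a pseudocount of 10 bases 2 members (0.948%) were lower for treatment, 2 higher for the interaction and 2 lower on treatment of parental cells. The shares of all genes there were 0.243%, 0.268% and 0.728%. With 500 bases 0 members passed on treatment of parental cells (all genes 0.168% higher and 0.392% lower). Leaving out a library gave 2 to 6 by phenotype, 1 to 5 between treated cells, 0 to 2 on treatment of parental cells and 0 to 1 for treatment, interaction and untreated cells.

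The replicate numbers did not pair the libraries: correlations of same-numbered deviations were −0.153 to 0.173 over 18 pairs, 2 of them over 0.1, and 4 of 12 libraries correlated best with their own number. With a replicate block limma called 2 members higher by phenotype (0.948%, all genes 1.74%) and 0 lower (all genes 0.523%), and 2 between treated cells. Over all alternatives, 450 recomputed values of the main comparisons stayed. Differences kept their direction and side of the threshold, and counts lay within 1.5 times or remained at 0. Of the rest, 49 counts moved further, 14 differences turned sign and 2 came to pass. Among called members and pairwise differences 462 values stayed. There, 103 calls of members were lost, 22 pairwise differences moved beyond the replicate spread and 1 value turned sign. That last value was the difference of ZNF525 on treatment of parental cells, at 0.42 without weak peaks. No parental library then had covered bases at ZNF525, so the value came from the centring alone.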
